A study of Homo sapiens with 4 samples.

Results

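The 10 genes described here are ERK-induced transcripts and the feedback inhibitors of the ERK pathway: EGR1, the MAP kinase phosphatase genes DUSP1, DUSP4, DUSP5 and DUSP6, the Sprouty genes SPRY2 and SPRY4, the Sprouty-related genes SPRED1 and SPRED2, and IER2. They were taken by symbol from a list, and all 10 were found among the 28058 genes of the count table. All 10 also passed the filter on low counts, which left 12399 genes for testing. Poly(A) RNA was sequenced from SH-SY5Y, an established human neuroblastoma cell line, in 2 samples given shock wave treatment (SWT) and 2 untreated control samples. Per the labels' protocols, SWT was 300 impulses of 0.08 mJ/mm2 at 3 Hz, given 7 cm from the applicator to medium-filled flasks in a water bath at 37 °C, and RNA was isolated 6 h later. The series design text names exosomes instead, and which of them was applied is not settled here. Whether the replicates were separate cultures is stated in no label, so the spread behind each p-value may be technical alone.

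Total counts were 10043697 and 11686808 in SWT replicates 1 and 2, and 11647603 and 9888263 in control replicates 1 and 2. Where a library has no count of a gene, a level of up to 0.258 to 0.303 CPM (counts scaled to the library size) is still allowed, for counting error only. No pair of libraries matched within sampling noise, with a chi-square of 1.72 to 3.83 per degree of freedom. It was 1.72 between the SWT libraries and 3.60 between the control libraries. Control replicate 1 had 3.83 and 2.73 with SWT replicates 1 and 2, and control replicate 2 had 2.14 and 2.59. The control libraries thus differed from each other by more than control replicate 2 differed from either SWT library. Noradrenergic markers of the labelled cell type were borne out in part: PHOX2A, TH, DBH, CHGA and MYCN had no count in any library, 2 others of the list reached 10 CPM in every library, and the list summed to 87.1 and 77.7 CPM in SWT and to 81.7 and 82.6 CPM in control. By comparison, 8 of 10 mesenchymal markers reached 10 CPM in every library. The 12 heart muscle markers summed to 33.0 and 9.87 CPM in the SWT libraries and to 7.50 and 329 CPM in the control libraries. In these markers control replicate 2 stood apart. Endothelial and glial markers summed to 2.18 to 6.17 CPM per list and library. The 4 leukocyte markers summed to 44.2 to 49.5 CPM, but only 1 of them reached 10 CPM in every library. The other 3 were under 1 CPM in every library, CD3E with no count. The difference SWT minus control followed the GC content of the transcripts at a Spearman rho of -0.403, taken across 6293 well-counted genes (mean log2 CPM over 5), which are not independent replicates. Libraries of the same group differed along GC content to a like degree, with a rho of 0.382 for SWT replicate 2 minus 1 and of -0.483 for control replicate 2 minus 1.

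Growth factors, adhesion and mechanical stretch activate the kinase cascade from RAS through RAF and MEK to ERK. Active ERK phosphorylates transcription factors that bind together with serum response factor, and within minutes immediate early genes such as EGR1 and IER2 are transcribed. The same signal raises its own brakes: dual-specificity phosphatases remove the activating phosphates from MAP kinases, while Sprouty and SPRED proteins hold back signalling between the receptor, RAS and RAF. The transcripts of these inhibitors are therefore widely read as a record of recent ERK output, and immediate early transcripts are short-lived.

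The promoter of EGR1 is shown because it carries the element through which ERK signalling is known to reach immediate early genes, and that of DUSP1 because it holds the cyclic AMP response element (CRE). Both are the 250 bases before the RefSeq start site on GRCh38.p14, written 5′ to 3′ along the gene's own strand, EGR1 from chr5:138465229-138465478 on the plus strand and DUSP1 from chr5:172771196-172771445 on the minus strand. Capitals mark the CArG boxes, the binding motif of serum response factor, in EGR1 and the CRE in DUSP1.
EGR1: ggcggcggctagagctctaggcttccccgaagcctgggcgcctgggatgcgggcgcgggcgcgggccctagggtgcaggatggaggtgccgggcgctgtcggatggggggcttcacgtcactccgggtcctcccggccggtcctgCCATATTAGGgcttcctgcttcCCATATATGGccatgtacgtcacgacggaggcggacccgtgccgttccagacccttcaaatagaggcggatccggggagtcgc
DUSP1: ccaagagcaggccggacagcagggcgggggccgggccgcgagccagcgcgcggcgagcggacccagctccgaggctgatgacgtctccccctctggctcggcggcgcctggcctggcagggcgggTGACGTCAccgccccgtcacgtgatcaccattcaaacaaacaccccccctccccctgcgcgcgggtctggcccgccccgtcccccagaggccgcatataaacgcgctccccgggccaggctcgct

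RefSeq promoter sequences were matched by symbol for 8 of the 10 genes, in 11 windows, since SPRED2 and SPRY2 have several start sites. DUSP4 and DUSP5 were not matched. EGR1 alone held CArG boxes, at 105 to 96 and 83 to 74 bases before the start, and 1.16% of all 35116 windows of this length hold at least 1. The CRE, TGACGTCA, was found in DUSP1 alone, 125 to 118 bases before the start, and in 1.65% of all windows. Its core TGACG, which the full CRE contains on both strands, occurred in 5 of the 8 genes. By windows, that was 5 of their 11 against 21.2% of all windows. The site of the EGR1 protein itself, GCGGGGGCG, occurred once, in SPRY2 at 41 to 33 bases before the start, and in 4.72% of all windows, and its variant GCGTGGGCG occurred in none of the 8 (0.720% of all windows). The AP-1 site TGAGTCA occurred in none of the 8 (4.20% of all windows). The ETS site CCGGAA was found in 1 window of SPRY2 and in IER2 (14.5%). The TATA box TATAAA was found in DUSP1 and 1 window of SPRED2 (10.7%). Both strands were searched, and these are matches of letters, not binding sites measured here.

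**Figure D1:**
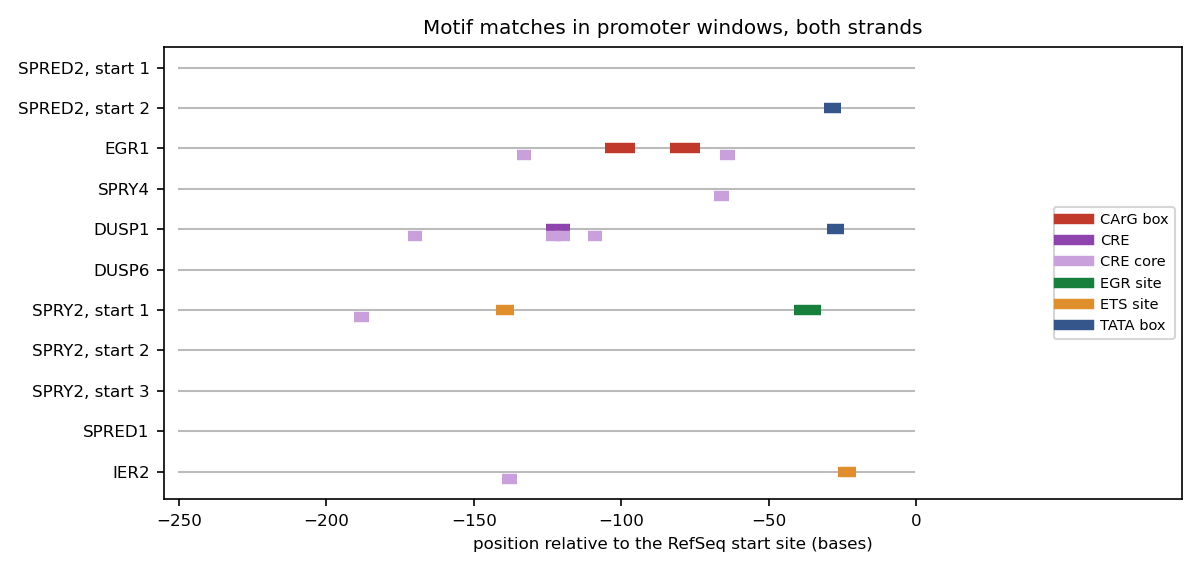
Motif matches in the 11 promoter windows of 8 genes; the horizontal axis is the position in bases relative to the RefSeq start site, each grey line is 1 window of 250 bases, and coloured blocks are matches on either strand, with CRE cores drawn just under the line. EGR1 holds 2 CArG boxes side by side, DUSP1 holds the CRE, and 5 windows hold no match.

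The comparison of SWT with control asks whether transcripts of this pathway differed 6 h after treatment. None of the 10 genes passed the test in either direction (edgeR quasi-likelihood test, Benjamini-Hochberg adjusted p from 0.838 to 0.998, n = 2 libraries each), and 0% of all genes tested did so. In such bulk samples, fewer cells expressing a gene and less of its RNA per cell cannot be told apart. By value, 9 of the 10 stood higher in SWT, where 49.7% of all genes tested did, and the median log2 fold change was 0.19 against -0.0008 over all genes tested. An unadjusted p under 0.05 was reached in the higher direction by 3 of the 10, SPRED2, IER2 and SPRY4, against 2.81% of all genes, and in the lower direction by 0, against 2.96%. With DESeq2, limma-voom and limma on the deposited log2 values the count of genes passing was likewise 0 of the 10, and 0, 4 and 2 of them had an unadjusted p under 0.05, against 0.654%, 5.81% and 4.94% of all genes those tools tested. Both SWT libraries lay above both control libraries for 5 of the 10 genes, DUSP1, DUSP5, SPRY4, SPRED2 and IER2, against 17.3% of all genes, and below both for 0, against 18% of all genes. The median moved with single libraries: it was 0.16 and 0.12 when SWT replicate 1 or SWT replicate 2 was left out, and 0.11 and 0.20 when control replicate 1 or control replicate 2 was. After removal of the trends of the libraries with length and GC content, an alternative chosen after the data were seen, it was 0.22.

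**Figure D2:**
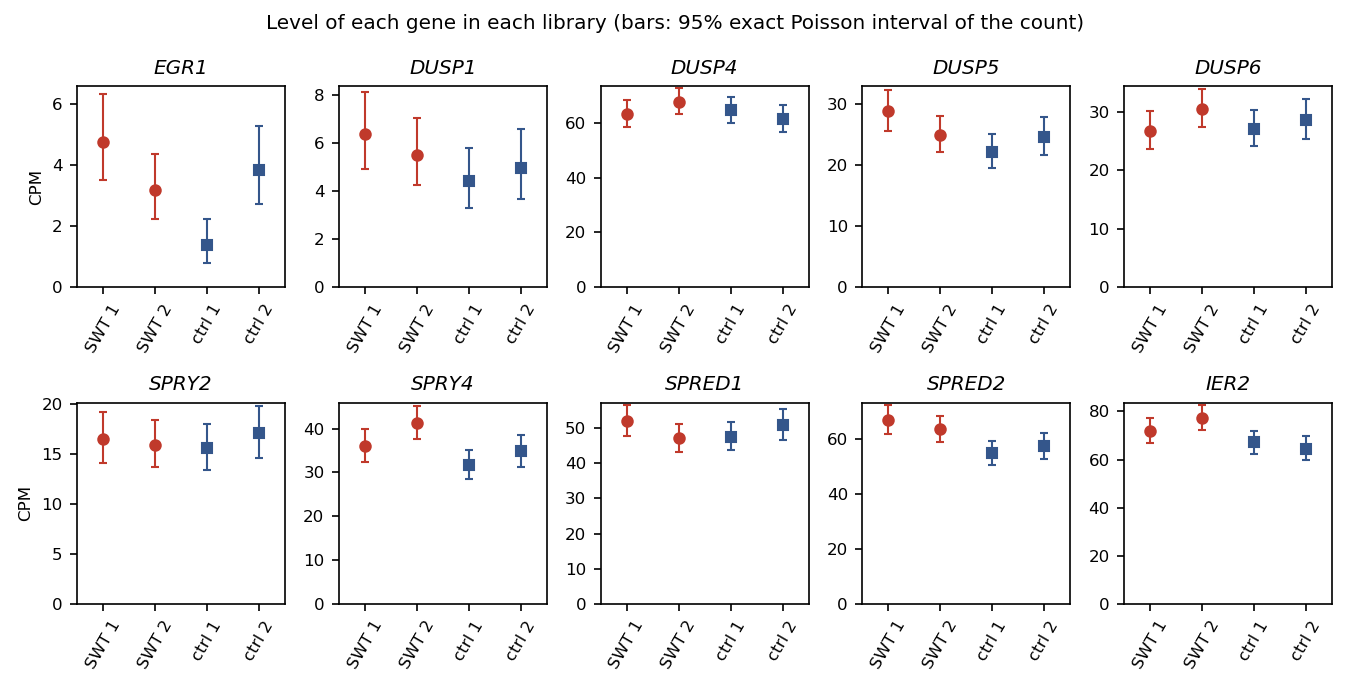
Level of each of the 10 genes in CPM (vertical axes, from 0) in SWT replicates 1 and 2 (red circles) and control replicates 1 and 2 (blue squares), with bars for the 95% exact Poisson interval of the count. EGR1 shows its lowest value, 1.38 CPM, in control replicate 1, and DUSP1, DUSP5, SPRY4, SPRED2 and IER2 have both SWT points above both control points.

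EGR1, a zinc finger transcription factor gene and a well-known immediate early target of ERK (chromosome 5, 138465490 to 138469315, plus strand), was the scarcest and the most variable of the 10. It had 48 and 37 counts in the SWT libraries and 16 and 38 counts in the control libraries, or 4.77 and 3.18 CPM in SWT and 1.38 and 3.84 CPM in control. The groups overlapped, since control replicate 2 lay between the SWT libraries and only control replicate 1 was low. The exact 95% Poisson interval of control replicate 1, 0.788 to 2.24 CPM, lay below that of control replicate 2, 2.72 to 5.28 CPM, and just touched that of SWT replicate 2, 2.24 to 4.38 CPM. The log2 fold change was 0.63 (SE 0.35, 95% interval -0.10 to 1.36, edgeR adjusted p = 0.854), and the control libraries differed from each other by more, 1.37 on the log2 scale. Leaving out 1 library decided the value: it was 0.31 and 0.90 with SWT replicate 1 or SWT replicate 2 left out, and 0.029 with control replicate 1 left out. Without control replicate 2, the library rich in heart muscle transcripts, it was 1.50 and passed the test (edgeR adjusted p = 0.0138), in a fit where the lone control library is assumed to vary like the SWT pair. The part of the heart muscle transcripts in the EGR1 level of control replicate 2 was not tested.

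IER2 (chromosome 19, 13150415 to 13154908, plus strand), an immediate early gene for a nuclear protein, was the most abundant of the 10 for its length. Its level was 71.9 and 77.3 CPM in SWT and 67.1 and 64.5 CPM in control. Both SWT libraries lay above both control libraries, and the difference of the group means on the log2 scale, 0.18, exceeded the differences within the groups, 0.11 in SWT and 0.057 in control. The log2 fold change was 0.18 (SE 0.07, 95% interval 0.034 to 0.33), which did not pass (edgeR adjusted p = 0.838). Leaving out single libraries moved it between 0.13 and 0.23. An annotated antisense transcript, AC011446.2, shares 946 bases with the exons of IER2 and is no entry of the count table, and since the strand setting of the counting is not given, its reads cannot be told apart from those of IER2.

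Among the phosphatase genes, DUSP1 and DUSP5 lay higher in SWT by value and DUSP4 and DUSP6 lay close to no difference. DUSP1 (chromosome 5, 172768090 to 172771195, minus strand) encodes a nuclear phosphatase of p38, JNK and ERK and is itself an immediate early gene. It had 64 and 64 counts in the SWT libraries and 51 and 49 counts in the control libraries, or 6.35 and 5.49 CPM in SWT and 4.39 and 4.96 CPM in control. The groups did not overlap, but the exact Poisson interval of SWT replicate 2, 4.23 to 7.02 CPM, spanned both control values. On the log2 scale the fold change was 0.34 (SE 0.20, 95% interval -0.071 to 0.75, edgeR adjusted p = 0.870), and 0.24 to 0.45 with 1 library left out.

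DUSP5 (chromosome 10, 110497838 to 110511544, plus strand), whose product acts on ERK in the nucleus, stood at 28.8 and 24.98 CPM in SWT and at 22.1 and 24.6 CPM in control. SWT replicate 2 and control replicate 2 were nearly equal, 0.023 apart on the log2 scale, so the separation of the groups rested on the outer libraries. Its log2 fold change was 0.20 (SE 0.11, 95% interval -0.026 to 0.43, edgeR adjusted p = 0.851), and 0.099 and 0.30 with SWT replicate 1 or SWT replicate 2 left out. The annotated pseudogene DUSP5P1 had 10 and 18 counts in the SWT libraries and 12 and 17 in the control libraries, against 243 to 291 for DUSP5, and reads may have been split between them.

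DUSP6 (chromosome 12, 89347232 to 89353271, minus strand) encodes the cytoplasmic phosphatase that binds and inactivates ERK, and its transcript is among the most used readouts of ERK activity. It stood at 26.8 and 30.6 CPM in SWT and at 27.1 and 28.6 CPM in control, with both control values inside the range of the SWT values. A log2 fold change of 0.046 was fitted (SE 0.10, edgeR adjusted p = 0.974), with a 95% interval of the fold from 0.893 to 1.19. The sign turned without SWT replicate 2, to -0.055. AC024909.2, an antisense transcript that is no entry of the count table, shares 1875 bases with its exons, and reads from the other strand cannot be told apart from those of DUSP6. DUSP4 (chromosome 8, 29333064 to 29350668, minus strand), for another nuclear MAP kinase phosphatase, stood at 63.1 and 67.7 CPM in SWT and at 64.6 and 61.4 CPM in control, which overlapped. Its log2 fold change was 0.055 (SE 0.07, edgeR adjusted p = 0.941), with a 95% interval of the fold from 0.935 to 1.15.

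Of the inhibitor genes acting near RAS, SPRED2 and SPRY4 lay higher in SWT with groups that did not overlap, and SPRED1 and SPRY2 lay close to no difference. SPRED2 (chromosome 2, 65310851 to 65432637, minus strand) encodes a membrane-bound inhibitor of RAF activation by RAS and had the smallest p-value of the 10. It stood at 66.9 and 63.4 CPM in SWT and at 54.8 and 57.4 CPM in control. The groups did not overlap, and the difference of the group means on the log2 scale, 0.22, was larger than those within the groups, 0.077 in SWT and 0.066 in control. The log2 fold change of 0.22 (SE 0.07, 95% interval 0.066 to 0.37, unadjusted p = 0.00767) ranked the gene number 97 of 12399 and did not pass (edgeR adjusted p = 0.838). It stayed between 0.18 and 0.26 as each library was left out.

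SPRED1 (chromosome 15, 38252326 to 38357249, plus strand), whose product brings the RAS inhibitor neurofibromin to the membrane, stood at 52.0 and 47.1 CPM in SWT and at 47.6 and 51.0 CPM in control. The SWT libraries spanned both controls. Its log2 fold change was 0.0083 (SE 0.08, edgeR adjusted p = 0.997), with a 95% interval of the fold from 0.895 to 1.13. The difference between the log2 fold changes of SPRED1 and SPRED2 was not tested.

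SPRY4 (chromosome 5, 142310427 to 142326455, minus strand) encodes a Sprouty inhibitor of receptor tyrosine kinase signalling to ERK. Its level was 36.0 and 41.3 CPM in SWT and 31.6 and 34.8 CPM in control. The groups did not overlap, although SWT replicate 1 and control replicate 2 differed by only 0.050 on the log2 scale. The log2 fold change was 0.23 (SE 0.09, 95% interval 0.030 to 0.42, edgeR adjusted p = 0.838), 0.12 without SWT replicate 2, 0.16 without control replicate 1 and 0.32 without SWT replicate 1. The antisense gene SPRY4-AS1 shares no exon bases with SPRY4 and had 10 and 13 counts in SWT and 4 and 7 in control. SPRY2 (chromosome 13, 80335976 to 80340951, minus strand), a second Sprouty gene, stood at 16.6 and 16.0 CPM in SWT and at 15.6 and 17.1 CPM in control, with the SWT values inside the range of the controls. Its log2 fold change was -0.0045 (SE 0.12, edgeR adjusted p = 0.998), with a 95% interval of the fold from 0.834 to 1.19.

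**Figure D3:**
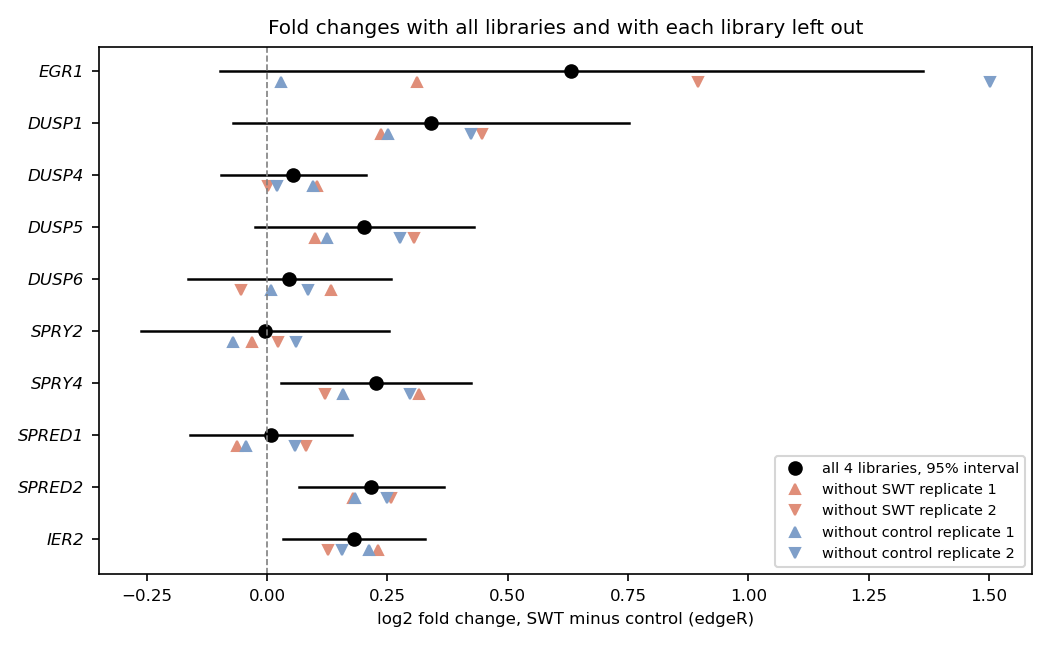
Log2 fold change of SWT minus control from edgeR (horizontal axis) for the 10 genes, with all 4 libraries (black points, lines for the approximate 95% interval) and with each library left out (triangles). EGR1 spreads from 0.029 to 1.50 as single libraries are left out, whereas SPRED2 stays between 0.18 and 0.26.

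The difference of the group means exceeded both differences within the groups for 4 of the 10 genes, DUSP1, SPRY4, SPRED2 and IER2, against 23.2% of all genes tested. The GC content of the longest transcripts ran from 38.9% for SPRED1 to 61.7% for IER2, with a median of 50.9% against 47.6% over all tested genes for which it was known. After removal of the length and GC trends, the log2 fold changes were 0.67 for EGR1, 0.38 for DUSP1, 0.24 for DUSP5, 0.23 for IER2, 0.23 for SPRY4 and 0.22 for SPRED2. The same fit gave 0.058 for DUSP4, 0.035 for DUSP6, 0.0005 for SPRY2 and -0.040 for SPRED1. The part of the trends in the differences between SWT and control was not tested.

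Per length, the levels of the 10 genes spanned a wide range, and their order is given in CPM per kilobase of merged GENCODE exons as the mean over the 4 libraries. IER2 led with 22.9 ± 1.84 (SD, n = 4), followed by SPRED2 at 11.8 ± 1.08, DUSP5 at 9.61 ± 1.05 and DUSP4 at 8.85 ± 0.370. The ranges over libraries of SPRED2 and DUSP5 overlapped, although SPRED2 lay above DUSP5 within each library. Those of DUSP5 and DUSP4 overlapped as well, and their order turned in control replicate 1, with DUSP5 at 8.47 and DUSP4 at 8.91. DUSP6 at 6.11 ± 0.370, SPRED1 at 5.98 ± 0.296, SPRY4 at 5.47 ± 0.613 and SPRY2 at 5.37 ± 0.218 formed a run in which each overlapped the next. DUSP1 at 2.63 ± 0.413 and EGR1 at 1.05 ± 0.456 stood below that run and did not overlap each other. The immediate early genes thus held both the highest place, IER2, and the lowest places. A transcript shorter than the merged exons would raise its gene's value, and isoforms were not resolved.

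Around the 10 genes, the wider pathway was described by 6 lists, and no gene of these lists passed the test over all genes tested (edgeR adjusted p of 0.838 or higher). Of the other receptor-level and RAS-level inhibitors, 9 of 11 tested lay above 0, the median being 0.049, and 6 had both SWT libraries above both controls (49.7% and 17.3% of all genes tested). Both SWT libraries lay below both controls for 1, against 18% of all genes tested. RASA2, a RAS GTPase-activating protein gene, stood at 0.29 (SE 0.13, adjusted p = 0.843), and CBL, for the ubiquitin ligase that removes active receptors, at 0.15 (SE 0.07, adjusted p = 0.843). PEBP1, for the RAF kinase inhibitor protein and the most abundant of this list per length, stood at 151 ± 2.77 CPM in SWT and 151 ± 2.30 CPM in control (SD, n = 2 each), with a log2 fold change of 0.0060.

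The kinase cascade itself lay on both sides of 0, with 11 of 18 tested genes above (49.7% of all genes tested) and 7 below, and a median of 0.016. Both SWT libraries lay above both controls for 4 and below for 5, against 17.3% and 18% of all genes tested. ARAF, a RAF kinase gene, stood at 51.3 ± 1.82 CPM in SWT and 59.1 ± 1.82 CPM in control, a log2 fold change of -0.20 (SE 0.07, adjusted p = 0.838). PTPN11, for the phosphatase SHP2 that passes receptor signals to RAS, stood at 287 ± 2.08 CPM in SWT and 260 ± 1.29 CPM in control, a log2 fold change of 0.15 (SE 0.05, adjusted p = 0.838). The adaptor gene SHC1, the most abundant of this list per length, stood at -0.10 (SE 0.05). HRAS was listed at 0 in all 4 libraries, as was IER3 of the other ERK-induced genes. Whether these zeros come from the cells or from the counting was not tested.

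Of the ETS and SRF factor genes through which ERK reaches its targets, 6 of 9 lay above 0, against 49.7% of all genes tested, with a median of 0.031. Both SWT libraries lay above both controls for 3 and below for 1, against 17.3% and 18% of all genes tested. ETS2 stood at 29.6 ± 1.92 CPM in SWT and 35.7 ± 2.59 CPM in control, a log2 fold change of -0.27 (SE 0.09, adjusted p = 0.838), and was the lowest by log2 fold change among the tested genes of the lists. ETS1 stood at 0.089 (SE 0.06) and SRF, for serum response factor, at -0.014 (SE 0.07). Of the other MAP kinase phosphatase genes, 4 of 8 were tested, with 3 above 0 and a median of 0.059. Both SWT libraries lay above both controls for 0 of them and below for 1. DUSP3 stood at -0.059 (SE 0.06) and DUSP16 at 0.083 (SE 0.10). The corepressors of EGR proteins were present, NAB1 with a log2 fold change of -0.0019 (SE 0.07) and NAB2 with 0.049 (SE 0.14). The paralogues of EGR1 were scarcely counted, EGR2 with 0 to 2 counts, EGR3 with 1 to 3 and EGR4 with 0 in each library, and were not tested.

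Other ERK-induced genes lay mostly above 0, 14 of 19 tested, with a median of 0.066 and both SWT libraries above both controls for 8 (49.7% and 17.3% of all genes tested). Both SWT libraries lay below both controls for 1, against 18% of all genes tested. CCND1, encoding cyclin D1, stood at 734 and 698 CPM in SWT and at 580 and 666 CPM in control, a log2 fold change of 0.20 (SE 0.06, adjusted p = 0.838). JUN, a subunit of AP-1, stood at 51.1 and 59.7 CPM in SWT and at 45.2 and 47.8 CPM in control, a log2 fold change of 0.26 (SE 0.08, adjusted p = 0.838). FOS, the classical immediate early gene, had only 7 and 9 counts in SWT and 5 and 7 in control and was not tested. SRF is on both this list and the one before it.

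**Figure D4:**
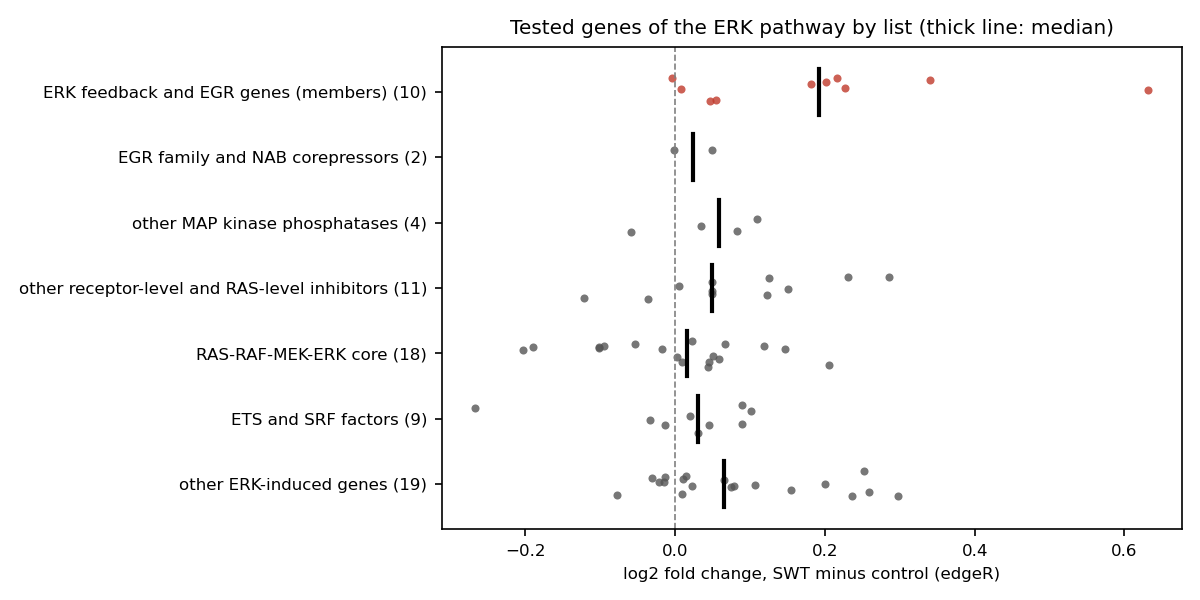
Log2 fold change of SWT minus control from edgeR (horizontal axis) for the tested genes of each list, with the number tested in brackets; points are genes, scattered vertically for visibility, and thick lines are medians. The 10 genes described here (red) have a median of 0.19, and the other lists have medians from 0.016 to 0.066.

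The genes whose pattern over the 4 libraries was nearest to the mean profile of the 10 were CCND1, TWISTNB and TDP2, of 10460 genes with a mean count of at least 50. Distance was Euclidean on log2 CPM centred for each gene, and was 0.013 for CCND1, 0.015 for TWISTNB and 0.018 for TDP2. The mean profile of the 10 stood at 0.13 and 0.064 in SWT and at -0.20 and 0.0063 in control, and EGR1, whose control libraries differed by 1.37, weighs in that mean and in the genes nearest to it. The median profile of the 10 stood at 0.056 and 0.070 in SWT and at -0.10 and -0.032 in control. TWISTNB stood at 50.1 and 47.3 CPM in SWT and at 39.8 and 45.8 CPM in control, and TDP2 at 58.1 and 56.1 CPM in SWT and at 47.0 and 53.5 CPM in control. With 4 libraries, likeness of this kind is a description only. The receptor gene named in the series title, TLR3, stood at 21.5 and 19.3 CPM in SWT and at 19.7 and 18.6 CPM in control, which overlapped (log2 fold change 0.087, SE 0.11, edgeR adjusted p = 0.941).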

How the data were processed

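The authors deposited raw counts per gene symbol for 28058 genes, 1 column per sample, and a second table of log2 values for 17151 genes. Over tested genes with a mean count of at least 50, deviations between libraries in the deposited log2 values were 0.167 times those of log2 CPM (least-squares slope), so fold changes from them are shrunken. Per the submitters' processing notes, which give no roles, the tools were DESeq2, HTSeq, STAR 2.5.3a, FastQC 0.11.5 and Trimmomatic 0.36, and the build was hg38. The library kit was stranded, per the labels' protocols; neither the annotation nor the strand setting used in counting is given in the sources used here.

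The test was that of edgeR 4.0.16 (R 4.3.3; TMM, filterByExpr, quasi-likelihood F-test, Benjamini-Hochberg over 12399 genes, threshold 0.05). CPM uses TMM-scaled library sizes, and log2 CPM between libraries a prior count of 2. Standard errors were derived from each log2 fold change and its F statistic, and 95% intervals from them with a t quantile; they are approximations. Counting error alone is covered by the exact Poisson intervals and by the 3 counts taken as the limit for a count of 0. Gene coordinates and merged exon lengths are from GENCODE release 29 on GRCh38, the assembly of hg38. Promoter sequences are from RefSeq on GRCh38.p14. The fits, including DESeq2 1.42.0 and limma 3.58.1 as alternatives, were tested on simulated counts. Plots were drawn in matplotlib 3.10.9 under Python 3.11.15.

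The 10 genes, the 6 lists, the markers and the tests were chosen with earlier results of these data known. In each list, the 2 genes with the smallest p-values and the most abundant per length were named beside the 10 genes. The 3 nearest profiles and TLR3 were named as well. FOS, HRAS, IER3, EGR2, EGR3 and EGR4 were named after their values were seen. Alternatives were other scalings, filters and tools, the replicate number as a block, and leaving out each library; the crossed pairing and the removal of length and GC trends (known for 97.4% of tested genes) were added after the data were seen.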

Additional observations from a re-analysis of the deposited data

How the results depend on the processing

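With edgeR and all 4 libraries, 0 of 12399 genes were higher and 0 lower in SWT (715 at an unadjusted p under 0.05). Counts of 0 held with both other scalings, a mean count of at least 50, DESeq2 (116 unadjusted), limma-voom (721), the deposited log2 values (847) and removal of the length and GC trends. Without a filter 20 genes were higher and 43 lower, none of them among the 10 genes. Fits with 1 library left out called 2 to 106 genes higher, 15 to 97 lower, and 0 to 1 of the 10 genes higher, which was EGR1 without control replicate 2; the median over the 10 genes ranged from 0.11 to 0.20. On the deposited log2 values, which are shrunken, that median was 0.020. EGR1 has no value with a mean count of at least 50, which removes it.

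The sign turned for genes near 0 only: with 1 library left out SPRY2 ranged from -0.072 to 0.061 (0.024 without SWT replicate 2), SPRED1 from -0.063 to 0.081 (-0.043 without control replicate 1) and DUSP6 from -0.055 to 0.13, and without the length and GC trends SPRY2 stood at 0.0005 and SPRED1 at -0.040; the cause was not tested. The other 7 genes stood higher in SWT under every alternative run.

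Same-numbered samples did not deviate from their group means alike. Their deviations instead tended weakly in opposite directions (correlation across genes -0.264), and the cause was not tested. With the replicate block 0 genes were higher and 1 lower, 0 of the 10 genes in either direction, and with the crossed pairing 55 were higher and 42 lower, again 0 of the 10. Depth limits EGR1 and DUSP1 most, with 16 to 64 counts a library.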
